A study of Mus musculus with 8 samples.

Results

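Gap43, Basp1, Marcks, Marcksl1, Stmn1, Stmn2, Stmn3 and Stmn4 encode proteins of the neuronal growth cone, and their chromatin accessibility was read from 3 deposited lists of ATAC-seq peaks. Each gene was given the peaks that touched its body or the 20 kb flanking either end of it, with gene bodies from GENCODE release M21 on the mm10 assembly. The rule found 68 of 152984 peaks in the wild-type (WT) list, 67 of 174407 in the mutant list and 49 of 106974 in the heterozygous (het) list, 184 of 434365 peaks in all. The 8 genes are among 21951 protein-coding genes of the annotation.

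The lists came from granule neuron progenitors (GNPs), the dividing precursors of cerebellar granule neurons, isolated from mouse pups at postnatal day 7 on a percoll gradient. In ATAC-seq the transposase Tn5 inserts adapters into open DNA, so that a peak marks a stretch of accessible chromatin. The groups differed in Chd7, a gene for an ATP-dependent chromatin remodeller. The 8 libraries were labelled Chd7 wild type (3), Chd7 mutant (3) and Chd7 het (2), all with the strain label C56Bl6/J. Per the study's methods the mutant was Atoh1-Cre::Chd7 f/f, the het Atoh1-Cre::Chd7 f/+, and WT was Chd7 f/f without Cre where the study gives it. Atoh1-Cre acts in cells of the rhombic lip lineage, which includes GNPs, and the study describes Chd7 protein that remained in the posterior lobe of mutant cerebella. The study calls the WT and mutant replicates technical, pups were not separated by sex, and the libraries of each group had been pooled before peaks were called. Each genotype therefore has 1 list and no replicate error, and no p-value is given for any difference between genotypes.

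Growth cones are the motile tips of growing axons. Gap43, Basp1 and the MARCKS proteins Marcks and Marcksl1 are attached to the inner face of the plasma membrane, where they bind calmodulin or acidic phospholipids and organise cortical actin, and Gap43 and both MARCKS proteins are substrates of protein kinase C. Stathmins bind tubulin dimers and promote microtubule shrinkage: Stmn1 is cytosolic and abundant in dividing and young neural cells, while Stmn2 (SCG10), Stmn3 (SCLIP) and Stmn4 (RB3) carry a membrane anchor and are mostly neuronal. Granule cells express such genes as they leave the cell cycle and extend parallel fibres.

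Tags left after filtering numbered 50394313 for WT, 51030229 for mutant and 30923002 for het, and tags were longer in WT and het than in mutant, a difference whose part in the ratios below cannot be told apart from that of genotype. The height of a peak is its summit pileup, the number of extended tags over its highest base, and is given as deposited or, where called depth-scaled, per 1000000 tags. Strength within a list is given as a rank, the percentage of that list's peaks at or below the peak's -log10 q, so that 100 is the strongest. Het peaks had been called from another alignment with longer tag extension, so their pileup cannot be set beside that of WT or mutant, and only presence and rank are compared with them. The het list is also shorter, and no shift of rank between WT and het over all peaks is given. A het rank below that of WT therefore cannot be told apart from the difference between the lists. Peaks lay within 1 kb of the start of 7 of 8 GNP markers in WT, with a median rank of 80.8, and of 7 in het and 8 in the mutant list. Of all coding genes 64.0% had such a peak in WT, 61.8% in het and 64.9% in mutant. Shared WT peaks at coding starts had a median rank of 88.4, above that of the GNP markers. The postmitotic granule neuron markers had 4, 3 and 4 of 4, with a median WT rank of 77.5, and the microglial markers Cx3cr1, Csf1r and Aif1 had 0 of 3 in every list. Markers of other cell types were also present at some starts, in WT 3 of 3 for GABA interneurons, 2 of 3 for Purkinje cells, 2 of 3 for astrocytes, 1 of 3 for the oligodendrocyte lineage and 1 of 2 for endothelium. The numbers were 2, 2, 2, 1 and 1 in het and 3, 1, 2, 2 and 1 in mutant, and the part of such cells in the values below was not tested. Median WT ranks of these other types ran from 54.4 (Purkinje cells) to 74.5 (oligodendrocyte lineage), and the Purkinje marker Calb1 alone ranked 89.1.

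The peaks of the 8 genes were mostly stronger than the middle of the WT list, and most of them were held by WT and mutant alike. Their WT peaks had a median rank of 71.6 within the WT list, whose middle is 50, a median -log10 q of 13.3 against 6.66, and a median width of 378.5 bp against 212 bp. Every gene had a peak at its start site in each of the 3 lists. Start sites of coding genes held 18 of the 68 WT peaks (26.5%), against 9.98% of all WT peaks. Each window was drawn around a gene and holds its start, so a higher share of start sites follows from the rule. Gap43, the longest gene at 92.2 kb, had the most peaks, and per 100 kb of window its 14.4 WT peaks were close to 14.1 at Marcksl1, 13.3 at Basp1 and 13.2 at Marcks. The stathmins were sparser, with 11.0 per 100 kb at Stmn1, 10.8 at Stmn2, 10.4 at Stmn3 and 8.71 at Stmn4.

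**Figure D1:**
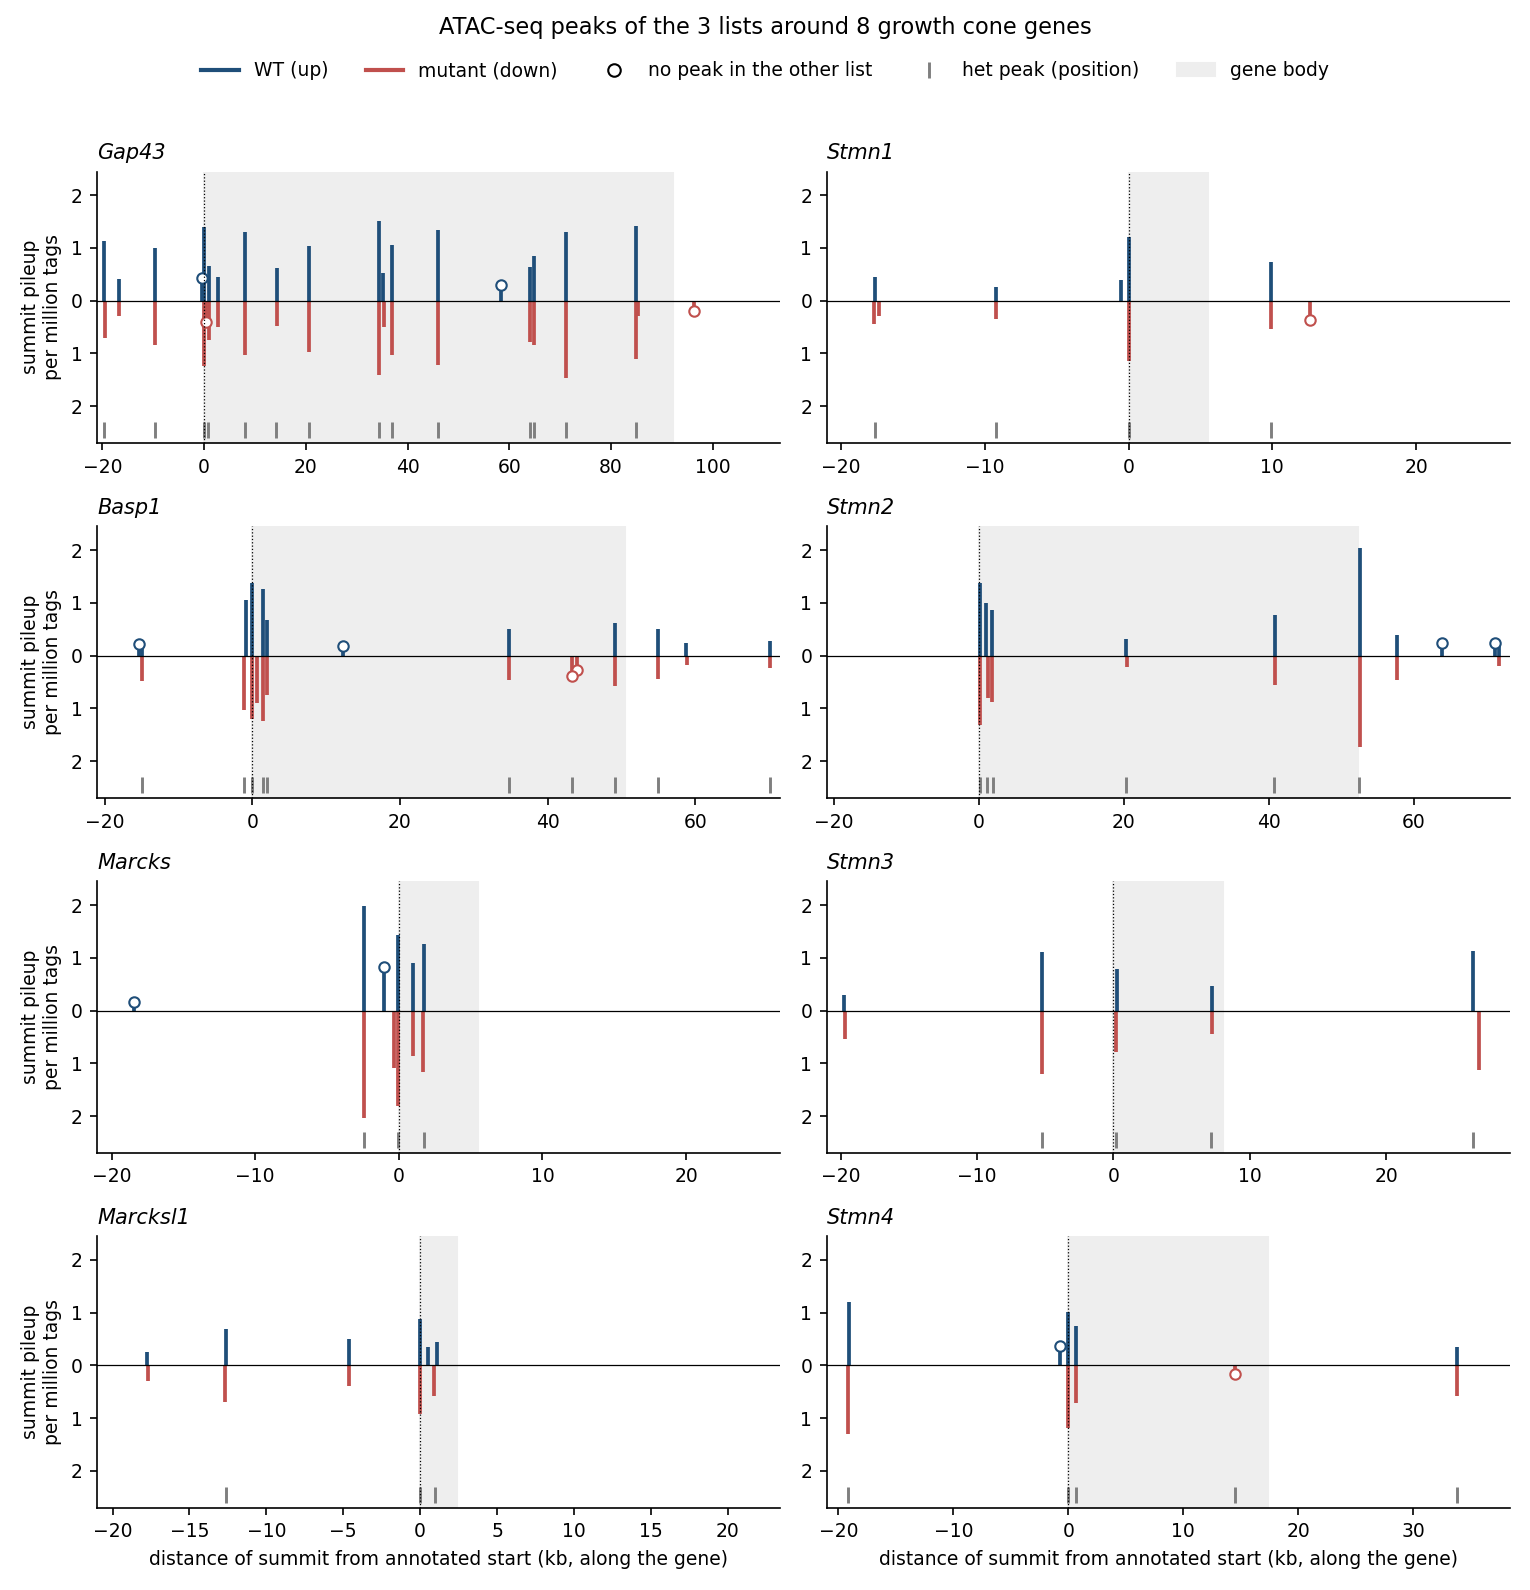
Peaks around each of the 8 genes, with the distance of the summit from the annotated start in kb along the direction of transcription on the x axis and depth-scaled summit pileup (per 1000000 tags) on the y axis, WT upward and mutant downward. Open circles mark peaks with no overlapping peak in the other of these lists, grey ticks mark het peaks and shading marks the gene body. The circles have a highest pileup of 42 tags in WT, at Marcks, otherwise 22, and of 21 in mutant, and every start has a bar in both directions.

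Gap43 (ENSMUSG00000047261.9, chr16:42248442-42340651, minus strand) had 19 WT peaks, 20 mutant peaks and 14 het peaks. Accessible sites lay along nearly the whole gene: 13 of the 19 WT peaks had their summit in an intron, from 2.82 to 84.9 kb from the start, 3 lay within 1 kb of the start and 3 in the upstream flank. At the start itself, chr16:42340473-42340915, the pileup was 70 in WT (1.39 after depth scaling) and 63 in mutant (1.23). The log2 ratio of mutant over WT was -0.17 with a 95% counting interval of -0.68 to 0.34, which includes no change. The peak ranked 96.1 in WT, 94.7 in mutant and 86.5 in het, where it was 1128 bp wide and also covered the smaller WT peak 0.452 kb upstream of the start.

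Some sites inside the Gap43 gene ranked above its start peak in WT, and others ranked below it, down to 38.6. The intronic peak 84.9 kb from the start ranked 98.9 in WT, 95.4 in mutant and 96.4 in het, with pileups of 71 in WT and 56 in mutant. That 71.2 kb from the start went the other way, with 66 in WT and 75 in mutant, and ranked 98.1 and 98.9. Across the 17 WT peaks of Gap43 that overlapped a mutant peak, the log2 ratio relative to the median of all shared peaks ran from -0.76 to 0.23 with a median of -0.17, and 13 of the 17 lay below that median. By this median Gap43 stood at percentile 12.4 of 18936 coding genes with shared peaks, where the middle gene was at -0.0035.

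The lowest of them was the most distal upstream peak, chr16:42359832-42360564, with its summit 19.6 kb from the start. It had a pileup of 57 in WT and 36 in mutant, a mutant over WT ratio of 0.624, and its log2 ratio of -0.68 had a counting interval of -1.33 to -0.054. It ranked 94.9 in WT, 86.0 in mutant and 84.7 in het, and was 1 of only 2 of the set's shared peaks whose counting interval left out the all-peak median. The lower het rank is not read as a change, since the Gap43 start peak also ranked lower in het (86.5) than in WT (96.1). Of Gap43 peaks without a partner, 2 were WT peaks and 2 mutant peaks. The stronger WT peak, chr16:42282167-42282359 in an intron 58.4 kb from the start, had a pileup of 15 and a -log10 q of 7.35 and had no het peak either. The other, chr16:42341039-42341183, had a pileup of 22 and lay next to the start peak, and a mutant peak without a WT partner lay 461 bp inside the gene, chr16:42340136-42340319, with a pileup of 21. Both fell within the wide het peak at the start, and lay within 1 kb of the start peak, as parts of 1 joined region held by all 3 lists. The remaining mutant peak, chr16:42244358-42244508, had a pileup of 10 in the downstream flank.

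For Gap43 3 windows are shown, the upstream peak that was lower in mutant, the strongest peak away from the start and the strongest WT peak without a mutant partner. The first and second are the 201 bp centred on the WT summit and the third is the peak itself, read from the mm10 genome. Capitals mark matches, on either strand, to the motifs searched: CCAAT (as ATTGG) in the first, CAGCTG, an E-box of neural bHLH factors, in the second and CAGCAGG (as CCTGCTG) in the third.
Gap43 chr16:42360171-42360371, plus strand: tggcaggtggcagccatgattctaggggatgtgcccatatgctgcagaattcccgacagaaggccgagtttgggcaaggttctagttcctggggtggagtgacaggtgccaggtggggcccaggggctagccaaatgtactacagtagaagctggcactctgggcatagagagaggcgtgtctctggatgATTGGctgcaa
Gap43 chr16:42255683-42255883, plus strand: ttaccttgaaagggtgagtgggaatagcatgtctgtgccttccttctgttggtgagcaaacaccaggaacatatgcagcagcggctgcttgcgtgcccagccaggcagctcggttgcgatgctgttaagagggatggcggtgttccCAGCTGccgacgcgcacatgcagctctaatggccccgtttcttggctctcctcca
Gap43 chr16:42282167-42282359, plus strand: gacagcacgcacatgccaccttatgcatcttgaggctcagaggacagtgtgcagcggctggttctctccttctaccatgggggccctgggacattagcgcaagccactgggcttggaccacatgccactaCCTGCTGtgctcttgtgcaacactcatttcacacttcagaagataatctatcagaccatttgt

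Basp1 (ENSMUSG00000045763.8, chr15:25363277-25413764, minus strand), a myristoylated membrane protein, had 12 WT, 13 mutant and 10 het peaks. Its start peak, chr15:25413372-25414072, had a pileup of 69 in WT and 61 in mutant, a log2 ratio of -0.20 (-0.72 to 0.32), and ranked 83.4 in WT, 77.8 in mutant and 68.0 in het. A noncoding gene, Gm5468, also starts there. The strongest WT peak outside the start site, 1.52 kb into the gene, had pileups of 64 and 63. The median relative log2 ratio over 10 shared peaks was -0.17, at percentile 12.4 of coding genes, and 8 of 10 lay below the all-peak median. The exception in size was a weak upstream peak 15.0 kb from the start, chr15:25428648-25428865, with a pileup of 13 in WT and 25 in mutant, 1.90 times, and a log2 interval of -0.096 to 2.02. The 2 WT peaks without a partner were weak, with pileups of 9 and 11 and a -log10 q of 1.55 and 3.95. The 2 mutant peaks without a WT partner were neighbours in the same intron, 43.3 and 44.0 kb from the start, with pileups of 20 and 14. The stronger, with a -log10 q of 8.76 the highest of the set's unpartnered mutant peaks, also overlapped a het peak.

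The mutant and het site of Basp1 is shown as read from mm10, with no match to the motifs searched. The Basp1 promoter, 250 bases before to 50 after the RefSeq start (GRCm38.p6), is shown for its composition, with 78% GC, 38 CpG and the GC-box GGGCGG found 4 times, marked in capitals.
Basp1 chr15:25370357-25370601, plus strand: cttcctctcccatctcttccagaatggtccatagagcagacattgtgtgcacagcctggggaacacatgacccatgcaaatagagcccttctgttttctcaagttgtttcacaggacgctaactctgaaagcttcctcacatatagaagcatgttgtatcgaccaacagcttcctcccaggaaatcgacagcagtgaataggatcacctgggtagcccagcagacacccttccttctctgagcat
Basp1 promoter chr15:25413715-25414014, minus strand: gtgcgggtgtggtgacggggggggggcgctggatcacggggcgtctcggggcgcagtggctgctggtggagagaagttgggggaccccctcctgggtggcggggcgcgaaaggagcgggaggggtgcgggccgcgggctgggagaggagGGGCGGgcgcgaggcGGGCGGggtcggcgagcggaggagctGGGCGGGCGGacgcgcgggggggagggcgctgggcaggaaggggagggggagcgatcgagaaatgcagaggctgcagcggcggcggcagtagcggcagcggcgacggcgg

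Marcks (ENSMUSG00000069662.5, chr10:37133375-37138920, minus strand) and Marcksl1 (ENSMUSG00000047945.6, chr4:129513581-129515985, plus strand) are short genes of 5.55 kb and 2.41 kb, with accessible sites at the start and upstream of it. Marcks had 6 WT, 5 mutant and 3 het peaks. Its start peak had a pileup of 72 in WT and 92 in mutant, the largest log2 ratio among the 8 starts at 0.34 (-0.13 to 0.80), and ranked 78.6 (WT), 81.4 (het) and 88.6 (mutant). The strongest Marcks peak was 2.397 kb upstream, chr10:37140656-37141510, with pileups of 100 in WT and 104 in mutant and ranks of 93.0, 93.5 and, in het, 92.2. The noncoding gene 5930403N24Rik starts and runs through this stretch. A mutant partner was missing for 2 of the 6 WT peaks (33.3%, Wilson 95% interval 9.68 to 70.0%). That 1.002 kb upstream, chr10:37139869-37140070, had a pileup of 42 over a high local background, with a fold enrichment of 2.15 and a rank of 25.9, and the other, 18.4 kb upstream, had a pileup of 8. No mutant peak of Marcks lacked a WT partner.

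Marcksl1 had 6 WT, 5 mutant and 3 het peaks, and every WT peak overlapped a mutant peak, where 0 of 6 allows a share up to 39.0%. The start peak had pileups of 44 in WT and 47 in mutant, a log2 ratio of 0.077 (-0.55 to 0.70), and ranked 81.8, 83.1 and 85.1 in WT, het and mutant. The peak 12.7 kb upstream had 35 in both. Just inside the gene, 2 WT peaks at 490 and 1113 bp, with pileups of 18 and 22, met a single mutant peak with a pileup of 30. The first of these passed 1.5-fold, at 1.65 times, with a log2 interval of -0.17 to 1.65. Of the 8 genes only Marcksl1 and Stmn4 had a median relative log2 ratio above 0, at 0.058 over 6 peaks and 0.093 over 4, and both signs changed under some alternatives. The Marcksl1 promoter of the RefSeq table has 63.7% GC and 22 CpG, and is shown with CCAAT (as ATTGG) and GGGCGG (also as CCGCCC) in capitals.
Marcksl1 promoter chr4:129513331-129513630, plus strand: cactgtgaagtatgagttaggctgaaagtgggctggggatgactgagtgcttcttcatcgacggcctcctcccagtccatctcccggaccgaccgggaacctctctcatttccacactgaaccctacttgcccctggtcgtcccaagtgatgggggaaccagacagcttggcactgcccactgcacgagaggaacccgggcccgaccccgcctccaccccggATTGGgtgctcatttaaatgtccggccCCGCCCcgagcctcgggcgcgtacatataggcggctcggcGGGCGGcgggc

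Stmn1 (ENSMUSG00000028832.11, chr4:134468320-134473843, plus strand) had 5 WT, 6 mutant and 4 het peaks. Its broad start peak had pileups of 61 in WT and 58 in mutant, a log2 ratio of -0.091 (-0.63 to 0.45), and ranks of 91.7 (WT), 88.3 (het) and 91.1 (mutant). A small WT peak 0.501 kb upstream, chr4:134467616-134467853, with a pileup of 20, gave the highest ratio of the set, 2.86 times. In mutant, and in het, 1 peak of about 1.6 kb (1603 and 1633 bp) covered this stretch together with the start, so the mutant pileup of 58 belongs to the start summit, and the ratio compares different summits. The downstream peak, 9.91 kb from the start, was lower in mutant at 27 against 37, a log2 ratio of -0.47 (-1.24 to 0.28), short of 1.5-fold from the all-peak median only by a little at -0.55. A mutant peak 12.6 kb from the start, chr4:134480904-134481016, had a pileup of 19 and a -log10 q of 8.27 and no WT or het partner.

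Stmn2 (ENSMUSG00000027500.10, chr3:8509360-8561606, plus strand) had 10 WT, 8 mutant and 6 het peaks, and of the 8 genes the lowest median ratio. The start peak was alike in both lists, with pileups of 69 and 67, a log2 ratio of -0.061 (-0.57 to 0.45), and ranks of 92.6, 89.5 and 93.0 in WT, het and mutant. Within the gene the mutant was lower at each of the next sites except that 1.77 kb in, where the pileup was 44 in WT and 45 in mutant. It was 50 against 41 at 919 bp, 39 against 28 at 40.8 kb, and 16 against 11 at 20.3 kb, the last of these past 1.5-fold with a ratio of 0.679 and an interval of the log2 ratio from -1.81 to 0.64. The WT peak of highest rank in the set lay 52.5 kb from the start, at the 3′ end of the gene, chr3:8561256-8562285, with a pileup of 103 in WT and 88 in mutant and ranks of 99.3, 98.1 and 98.0 in WT, het and mutant, where in mutant the Gap43 peak 71.2 kb from its start ranked higher. The median relative log2 ratio over 8 shared peaks was -0.28, 7 of 8 lay below the all-peak median, and Stmn2 stood at percentile 4.48 of 18936 coding genes. Its 2 WT peaks without a partner, 64.0 and 71.2 kb from the start, had pileups of 12 each and no het peak, and 0 of 8 mutant peaks lacked a WT partner (upper bound 32.4%). None of the Stmn2 counting intervals left out the all-peak median.

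The intronic Stmn2 peak that was lower in mutant and the 201 bp around the summit of its strongest peak are shown, with a GC-box (as CCGCCC) in capitals in the first and no motif match in the second. The mutant peak of Stmn1 without a WT partner follows, with CAGATG, the other bHLH E-box searched (as CATCTG), in capitals.
Stmn2 chr3:8529535-8529763, plus strand: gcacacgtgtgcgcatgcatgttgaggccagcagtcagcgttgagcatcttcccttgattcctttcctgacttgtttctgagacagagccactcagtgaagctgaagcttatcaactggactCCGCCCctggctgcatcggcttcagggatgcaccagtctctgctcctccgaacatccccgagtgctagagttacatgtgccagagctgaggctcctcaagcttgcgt
Stmn2 chr3:8561778-8561978, plus strand: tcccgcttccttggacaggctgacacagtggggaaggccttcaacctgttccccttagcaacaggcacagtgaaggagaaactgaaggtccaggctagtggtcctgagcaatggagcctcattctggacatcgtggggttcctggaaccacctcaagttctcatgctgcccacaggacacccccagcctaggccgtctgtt
Stmn1 chr4:134480904-134481016, plus strand: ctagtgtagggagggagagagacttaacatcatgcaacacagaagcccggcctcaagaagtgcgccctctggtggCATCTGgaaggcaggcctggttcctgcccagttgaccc

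Stmn3 (ENSMUSG00000027581.12, chr2:181306459-181314500, minus strand) had 5 peaks in WT, 5 in mutant and 4 in het, and no WT or mutant peak lacked a partner (0 of 5 in either direction, upper bound 43.4%). The start peak had a pileup of 40 in both lists, a log2 ratio of -0.018 (-0.69 to 0.65), and ranked 87.3, 83.7 and 86.6 in WT, het and mutant. The strongest peaks of its window are those of neighbours, the start of Rtel1 with 56 in WT and 61 in mutant and the start of Gmeb2 with 57 and 58. A weak peak inside Rtel1, 19.7 kb from the Stmn3 start, had 15 in WT and 28 in mutant, 1.84 times, with a log2 interval of -0.072 to 1.89. The Stmn3 promoter has 49.7% GC and 6 CpG, far fewer than those of Basp1 and Marcksl1, and is shown with CGGAAG, the core of ETS factor sites (as CTTCCG), and CAGATG in capitals.
Stmn3 promoter chr2:181314451-181314750, minus strand: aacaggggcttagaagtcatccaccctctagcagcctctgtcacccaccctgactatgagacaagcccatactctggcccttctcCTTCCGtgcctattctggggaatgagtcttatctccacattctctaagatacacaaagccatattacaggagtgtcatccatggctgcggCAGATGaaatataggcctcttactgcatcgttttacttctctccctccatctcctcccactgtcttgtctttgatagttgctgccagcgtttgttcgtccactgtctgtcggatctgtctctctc

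Stmn4 (ENSMUSG00000022044.14, chr14:66344296-66361680, plus strand) had 5 peaks in each list. The start peak had pileups of 51 in WT and 61 in mutant, a log2 ratio of 0.24 (-0.32 to 0.81), and ranked 90.4, 84.1 and 95.4 in WT, het and mutant. The strongest other peak, 19.1 kb upstream, had 61 in WT and 66 in mutant and ranked 95.4 and 97.5. A downstream peak 33.8 kb from the start, chr14:66377987-66378366, had 18 in WT and 30 in mutant, 1.65 times, with a log2 interval of -0.17 to 1.65. The WT peak without a partner lay 0.763 kb upstream of the start, with a pileup of 19. The mutant peak without a WT partner lay in an intron 14.5 kb from the start, with a pileup of 8, and the het list held a clearer peak there, with a -log10 q of 10.3 against 2.33 in mutant. That site is shown, with no match to the motifs searched.
Stmn4 chr14:66358755-66358894, plus strand: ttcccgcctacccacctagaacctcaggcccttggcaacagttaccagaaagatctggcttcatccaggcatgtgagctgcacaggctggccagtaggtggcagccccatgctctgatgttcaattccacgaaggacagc

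Start sites were compared across the set, since every member had a peak there in all lists. Such a peak was held by 64.0% (WT), 61.8% (het) and 64.9% (mutant) of all 21951 coding genes. The depth-scaled mutant pileup was below that of WT at 5 starts (Gap43, Basp1, Stmn1, Stmn2 and Stmn3) and above it at 3 (Marcks, Marcksl1 and Stmn4). The 8 log2 ratios ran from -0.20 at Basp1 to 0.34 at Marcks, and each counting interval included 0, so no start differed between WT and mutant beyond counting error at this depth. In order of WT rank the starts were Gap43, Stmn2, Stmn1, Stmn4, Stmn3, Basp1, Marcksl1 and Marcks, between 96.1 and 78.6. The median WT rank of all shared peaks at coding starts, 88.4, fell between Stmn4 and Stmn3 in this order. That median takes in every shared peak at a start, while the order holds only the strongest peak of each gene. Over all 16 WT peaks at the members' own starts, shared or not, the median rank was 80.4. In mutant the rank of Marcks was 9.96 points higher than in WT and that of Basp1 lower, by -5.66 points, which were the widest shifts, where the median change of all shared peaks between these lists of unequal length was 2.28 points.

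**Figure D2:**
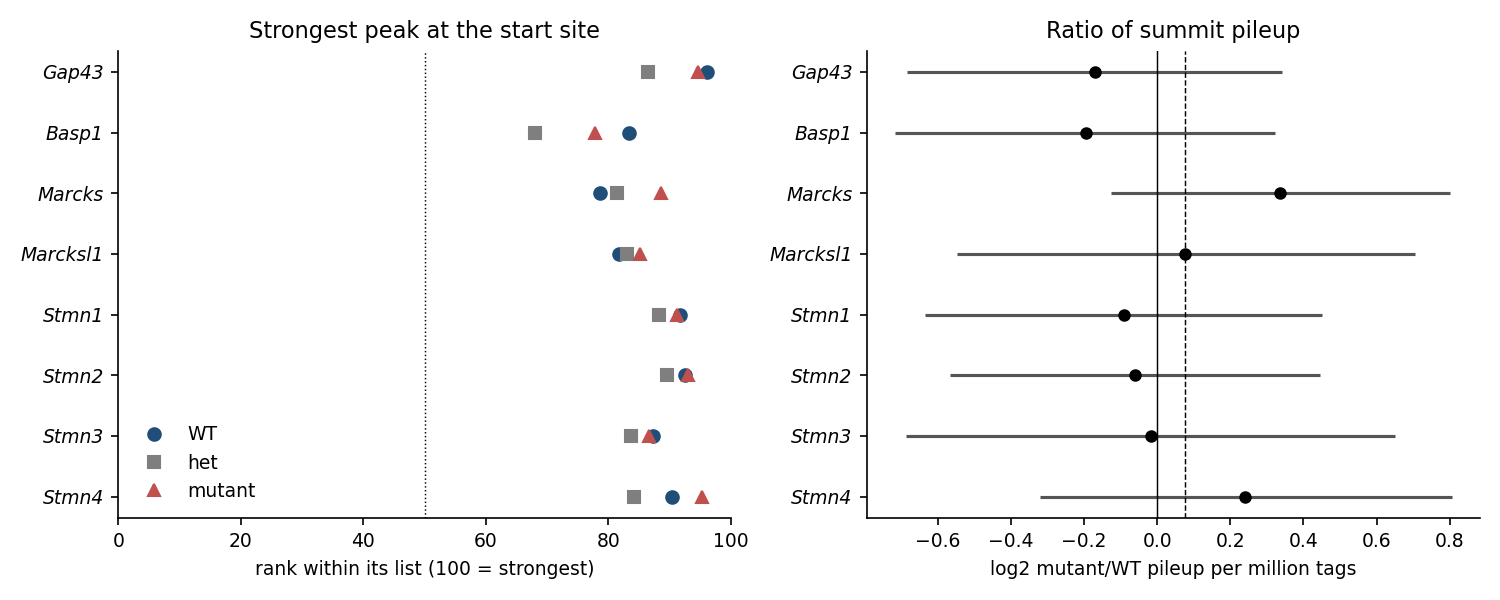
The strongest peak within 1 kb of each start. Left, its rank within the WT, het and mutant lists on the x axis (100 is the strongest, the dotted line is the middle of a list). Right, the log2 ratio of mutant over WT depth-scaled summit pileup (per 1000000 tags) with its 95% counting interval, the solid line at 0 and the dashed line at the median of all shared peaks, 0.075. The lowest rank is that of Basp1 in het, 68.0, and all 8 intervals include 0.

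Which sites were kept or gained was asked next by overlap of at least 1 bp. A mutant partner was missing for 9 of the 68 WT peaks (13.2%, Wilson 95% interval 7.12 to 23.3%), against 22.8% of all WT peaks. Counted per gene over windows of the same kind, the middle of 18936 coding genes had 10%. Marcksl1, Stmn1 and Stmn3, with no unpartnered WT peak, stood at percentile 46.9 of these genes, the lowest that a gene can have. The other members ran from percentile 51.3 at Gap43 to 90.8 at Marcks, all above the middle gene. Since many genes tie at that lowest value, the percentiles cannot show whether the set kept more of its WT peaks than a typical gene. A WT partner was missing for 6 of the 67 mutant peaks (8.96%, 4.17 to 18.2%), against 30.7% of all mutant peaks. The unpartnered ones were weak, at a median -log10 q of 4.51 (WT) and 4.33 (mutant), and the set's peaks were stronger than most. Among peaks of -log10 q 5 or more all shares were smaller, as were the gaps in percentage points: 2 of 54 in WT (3.70%, 1.02 to 12.5%) against 5.78%, and 2 of 55 in mutant (3.64%, 1.003 to 12.3%) against 11.2%. Relative to its list the mutant share stayed about as low as before, though its interval reached 11.2%. These 4 unpartnered peaks are the intronic Gap43 peak, the Stmn2 peak 71.2 kb from the start, the intronic Basp1 peak and the downstream Stmn1 peak. The highest -log10 q among all 15 unpartnered peaks was 8.76, against a WT median of 13.3 for the set.

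Among the 59 shared WT peaks, 2 were lower in mutant by 1.5-fold or more from the median of all shared peaks (3.39%, 0.935 to 11.5%), 1 each at Gap43 and Stmn2, against 5.1% of 118098 shared peaks. With fold enrichment in place of pileup neither passed 1.5-fold. In the other direction 5 were higher (8.47%, 3.67 to 18.4%), 1 each at Basp1, Marcksl1, Stmn1, Stmn3 and Stmn4, against 6.33%. Without the 4 WT peaks that met a mutant peak together with another, the numbers were 2 lower and 3 higher of 55. Neither number stood apart from the background, and only the upstream Gap43 peak and the Stmn1 peak that shares its mutant partner had intervals that left out the all-peak median (2 of 59, 3.39%, against 1.84% of all).

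Ratios of the shared peaks were slightly lower than the background at some of the genes. The median log2 ratio of its 59 shared peaks was -0.04 against 0.075 for all shared peaks, a difference of -0.12, and 40 of 59 lay below the all-peak median (67.8%, 55.1 to 78.3%) where 49.5% of all shared peaks did. Of these 40, 28 were among the 35 shared peaks of Gap43, Basp1 and Stmn2, and the other 5 genes had 12 of 24. Those 3 genes were grouped because their medians were the lowest in these same ratios, so the split describes and tests nothing. The ratio depended on peak strength, from a relative median of 0.37 in the weakest decile of WT rank to -0.069 in the strongest, and start-site peaks of all coding genes had -0.013. Set beside shared peaks of the same decile, the 8 genes were at -0.08, with 41 of 59 (69.5%, 56.9 to 79.7%) below their decile's median. By rank, 30 of the 59 peaks were lower in mutant and 29 higher, with a median change of -0.35 points, while for all shared peaks the median change was 2.28 points and 38.1% were lower. The medians of the members were -0.28 at Stmn2, -0.17 at Gap43 and at Basp1, -0.093 at Stmn1, -0.081 at Marcks, -0.068 at Stmn3, 0.058 at Marcksl1 and 0.093 at Stmn4, and the signs of Marcks, Stmn3, Marcksl1 and Stmn4 changed under some alternatives. Windows take in neighbouring genes: the Stmn1 median was the value of the peak at the start of 1700021N21Rik. That of Stmn3 was the value of the peak at the start of Gmeb2. The 95% counting interval of a single peak reached 0.70 to either side in the median, and peaks of 1 gene are not independent.

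**Figure D3:**
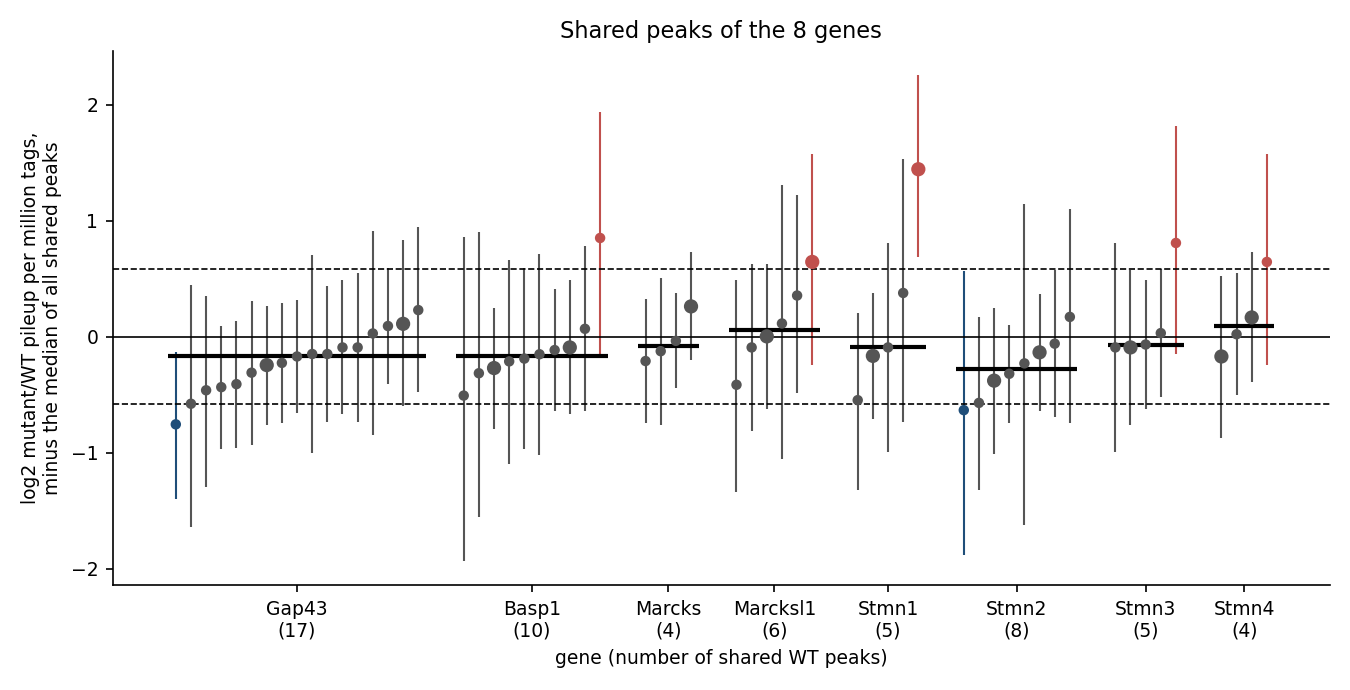
The 59 shared WT peaks by gene, ordered by ratio within the gene, with the log2 ratio of mutant over WT depth-scaled pileup minus the median of all shared peaks on the y axis. Points are peaks, large ones at start sites, thin lines are 95% counting intervals, thick bars are medians per gene and dashed lines are 1.5-fold. Blue marks the 2 peaks past 1.5-fold lower and red the 5 higher, and 13 of 17 points at Gap43 and 7 of 8 at Stmn2 lie below 0.

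The study's own list of genes lower by RNA-seq in homozygous mutants holds Gap43 and Stmn2 and none of the other members. It was drawn at the stricter of the study's significance limits. A larger set at the looser limit was not used, so absence from the list does not mean unchanged RNA. The study also reports Chd7 binding at Gap43 in GNPs, and lower expression of its Chd7-regulated genes after acute loss of Chd7 in culture. As examples of lower ATAC-seq peaks in mutants its text names Cadps2, Nkain3, Reln, Bmp5 and Fstl5, and not Gap43 or Stmn2. The RNA-seq list was chosen on expression in related samples, and its names alone were used. Stmn2 had the lowest median ratio and Gap43, with Basp1, the next lowest. Gap43 and Stmn2 each had 1 called lower peak, of 17 and 8 shared peaks, where 5.1% of all shared peaks were called, and neither call held with fold enrichment in place of pileup. Basp1, which is not on the list, had the same median as Gap43, and neither listed gene lost its start peak.

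The het list was set beside both others by presence. Of the WT peaks 50 of 68 overlapped a het peak (73.5%, 61.99 to 82.6%), against 63.1% of all WT peaks, and of the mutant peaks 54 of 67 did (80.6%, 69.6 to 88.3%), against 58.7%. In turn 47 of 49 het peaks overlapped a WT peak and 49 of 49 a mutant peak, against 86.7% and 89.3% of all het peaks. The 2 het peaks without a WT partner were the Basp1 site 43.3 kb into the gene and the Stmn4 site 14.5 kb in, both shown above. The het list covered 1 of the 9 unpartnered WT peaks and 3 of the 6 unpartnered mutant peaks (13.2% and 15.2% in the complete lists). Joined across lists when within 300 bp, the peaks made 64 regions, of which 42 were held by all 3 lists (65.6%, against 45.7% of all 190582 regions). Another 10 were held by WT and mutant (15.6%, against 12.7%), 7 by WT alone (10.9%, against 13.3%), 3 by mutant alone (4.69%, against 20.1%) and 2 by het and mutant (3.13%, against 3.03%). No region was held by het alone or by WT and het alone, which make up the small remainder of all regions. The share held by all lists ran from 50% at Marcks and Marcksl1 to 80% at Stmn1 and Stmn3, with 13 of 18 regions at Gap43.

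**Figure D4:**
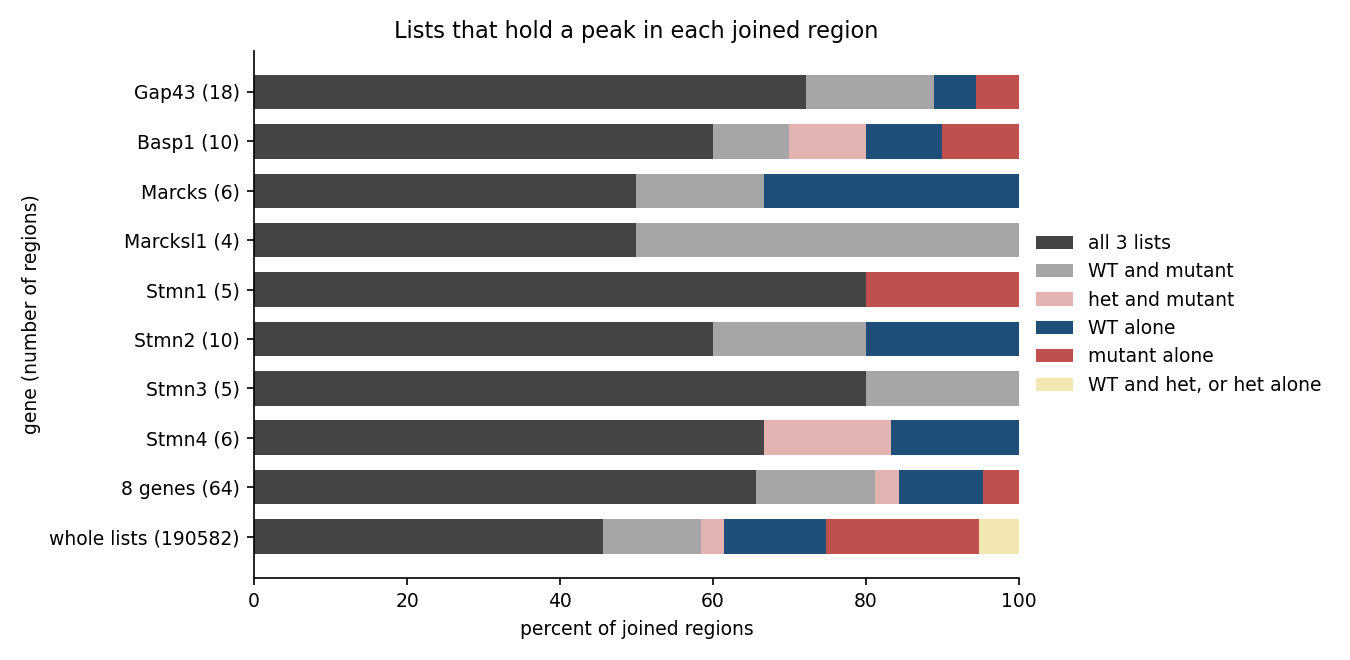
Joined regions of each gene, of the 8 genes and of the complete lists, as the percentage (x axis) held by each combination of lists, with the number of regions in brackets. The 8 genes have 65.6% in all 3 lists against 45.7% of all regions, and 4.69% against 20.1% in mutant alone.

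A list of 36 other genes of growth cones and neurites, all matched to the annotation, gave a wider frame. It holds collapsin response mediators, doublecortin, tubulins, microtubule-associated proteins, actin regulators, adhesion molecules, protein kinase C, calmodulins, the neuronal Elavl proteins and the repressor Rest. Unpartnered were 81 of its 586 WT peaks (13.8%, 11.3 to 16.9%) and 143 of its 672 mutant peaks (21.3%, 18.4 to 24.5%). Of 505 shared peaks 19 were lower and 17 higher by 1.5-fold (3.76% and 3.37%), and the median relative log2 ratio was -0.019, nearer to 0 than the -0.12 of the 8 genes. The highest unpartnered shares of WT peaks were at Nrn1, a GPI-anchored promoter of neurite growth (6 of 11, 54.5%), Elavl3, a neuronal RNA-binding protein (5 of 14, 35.7%), and Calm2, a calmodulin gene (2 of 6, 33.3%). At the other end 9 genes had none, among them Dpysl5 (0 of 18), Dpysl3 (0 of 17) and Dcx (0 of 12). Intervals of these shares are wide, from 28.0 to 78.7% at Nrn1.

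What the member peaks shared in sequence was described in the 201 bp around each WT summit, over 68 member windows and 152974 windows of all WT peaks. Median GC content was 54.7% against 51.7%. The GC-box GGGCGG was found in 18 member windows (26.5%, against 11.5% of all), in 8 of 16 at the members' start sites and in 10 of 52 elsewhere. The E-box CAGATG was found in 13.2% against 28.6% and CAGCTG in 19.1% against 23.6%. CCAAT was in 32.4% against 27.0%, CGGAAG in 7.35% against 5.86%, CAGCAGG in 10.3% against 12.2%, TATAAA in 1.47% against 5.54% and the AP-1 site TGACTCA in 1.47% against 3.97%. The palindromic NFI site and the REST site (RE1) were in 0 member windows, and in 0.0863% and 0.0137% of all. In 32817 RefSeq promoters of 300 bases, GGGCGG was found in 35.6%, CAGATG in 17.2%, CGGAAG in 16.9% and CCAAT in 37.4%. Both strands were searched, and matches describe letters and not bound factors.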

How the data were processed

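Accessibility was measured by ATAC-seq in 8 libraries of P7 GNPs (3 WT, 3 mutant, 2 het). Per the file headers, the authors called 1 list per genotype on pooled libraries with MACS2 2.1.0.20150731 with 0.05 as the q-value cutoff, no control library and a regional background of 10000 bp. Headers give a STAR alignment folder with modelled fragments of 90 bp (WT) and 88 bp (mutant) and tags of 107 and 76 bp, and for het a bowtie folder, tags of 107 bp shifted by -100 bp and extended to 200 bp. The study's methods describe bowtie and the shift for ATAC-seq, which matches the het header alone, so the WT and mutant lists may not be those of the published analysis. Names of tools in the submitters' notes include Bowtie 1.0.0, STAR 2.5.0b, Picard 1.139 and Trim Galore 0.4.1. The deposited signal is the summit pileup, a whole number of extended tags not scaled to depth. The deposited ratio is fold enrichment over local background, and -log10 q values were deposited as well (-log10 p was not used). All columns were assigned, with 0 left without a group.

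From these, ranks, overlaps of at least 1 bp, joined regions (300 bp) and log2 ratios of pileup per 1000000 tags were computed with python 3.11.15, numpy 2.4.6, pandas 2.3.3 and scipy 1.17.1, and drawn with matplotlib 3.10.9. A WT peak took the strongest mutant peak that overlapped it. A ratio was called at 1.5-fold from the median of all shared peaks, 0.075 on the log2 scale (1.05 times). Intervals are exact for ratios and Wilson for shares, at 95%, and cover counting error only, since PCR copies and neighbouring peaks are not independent. The scripts were tested on simulated data. Tag length, fragment model and shift differ between lists, and could move peak edges, numbers and heights.

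All 8 members are named, with the start peak, the strongest other WT peak, the strongest unpartnered peaks and the called shared peaks of each. Other genes are the 3 highest and 3 lowest of the list of 36 in unpartnered share of WT peaks, among those with 5 or more WT peaks. The members and lists were chosen with earlier results of these data known. Coordinates count from 1 in mm10, and no peak passed the end of the 21 chromosomes compared. RefSeq promoters (GRCm38.p6) were matched for 3 of 8 members, Gap43, Marcks, Stmn1, Stmn2 and Stmn4 having no entry in the table used.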

Additional observations from a re-analysis of the deposited data

How the results depend on the processing

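No paired analysis was possible because each list was called on the pooled libraries of its genotype, and leaving out a replicate could not be run for the same reason. Values for single genes, each over 4 to 17 shared peaks, also moved: the median of Marcksl1 was 0.35 with the gene body alone and 0.18 with 5 kb flanks, and that of Stmn4 ran from -0.003 to 0.24. Among summary values, WT peaks numbered 95 with 50 kb flanks. With the gene body alone, WT peaks numbered 38 and mutant peaks 41, the WT share without a mutant peak was 5.26%, and 1 shared peak was lower and 1 higher. With 5 kb flanks 1 was lower and 2 higher, and with 50 kb flanks 4 were lower. At a -log10 q of 10 or more 41 WT peaks were left. At 5 or more for the peaks counted, the unpartnered shares were 3.70% (WT) and 3.64% (mutant), 85.2% of WT peaks met a het peak and 3 shared peaks were higher, and with both lists cut at 5 the shares were 5.56% and 3.64%. At 50% reciprocal overlap 20.6% of WT peaks had no mutant peak (14 of 68, against 13.2% at 1 bp). Of mutant peaks 19.4% then had no WT peak and 64.2% met a het peak. With lists of equal length (the strongest 106974 peaks of each) 15.3% of WT peaks (9 of 59) had no mutant peak. In the other direction 3.70% of mutant peaks (2 of 54) had no WT peak. For the reciprocal overlap, the equal lists, the gene body and both lists cut at 5, no share over the complete lists is given. Whether the set moved with its background there cannot be read from these shares. Fold enrichment in place of pileup gave 0 lower peaks. Leaving out WT peaks that share a mutant peak, an alternative chosen after seeing the data like the centring by decile, gave 3 higher. The median relative log2 ratio of the set stayed below 0 throughout, between -0.14 and -0.08. That of Marcks, Marcksl1, Stmn3 and Stmn4 changed sign under some alternatives, and that of Gap43, Basp1, Stmn1 and Stmn2 did not. The causes of these shifts were not tested beyond the fewer peaks that narrower windows or stricter limits leave. Depth limits single peaks most, with a median interval of 0.70 on either side on the log2 scale.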

Other observations

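The coding genes most like Gap43 in number of WT peaks, unpartnered share of them and median relative log2 ratio, over windows of the same kind, were Mgmt, a DNA repair enzyme (20 WT peaks, 10%, -0.17), Map3k13, a kinase of axonal injury signalling (18, 11.1%, -0.18), Mtcl1, a microtubule crosslinker (19, 10.5%, -0.19), Fbln2, an extracellular matrix protein (19, 10.5%, -0.15), and Eya2, a transcriptional cofactor (17, 11.8%, -0.14). They were the nearest 5 of 18936 genes by a standardised distance over these 3 values, from 0.072 at Mgmt to 0.23 at Eya2.

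A further motif was searched after the sequences had been read: a loose core of the CTCF recognition sequence, on both strands of the 201 bp around the summit. It was found in 9 of 68 member WT windows (13.2%), against 10.4% of 152974 WT windows. Among mutant peaks without a WT peak it was in 2 of 6 member windows, those of the Stmn1 and Stmn4 peaks shown above, against 6.28% of 53527 such windows in the complete list. With 6 windows, chosen after being seen, this is a description only.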
